A study of Mus musculus with 8 samples.

Results

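The genes described are the collagen chain genes that remain when Col4a1, Col4a2, Col15a1 and Col18a1 are set aside. The rule reads only the symbol (Col, a number, a, a number), and 40 of the 31053 genes in the count tables met the rule. Single cells of the mouse brain were profiled by droplet RNA sequencing in 2 experiments, each with a knockout of a laminin chain gene and its own wild type (WT). The tissue is labelled brain cortical plate and the sample titles say cortex. The mice were 8 weeks old and perfused with PBS. The groups were Lama4-/- mice, which lack the laminin α4 chain in all cells, WT mice for Lama4-/-, Tek-Cre:Lama5-/- mice, and WT mice for Tek-Cre:Lama5-/-. Tek-Cre is active in endothelial cells and in blood-forming cells, which also gives rise to microglia, so the deletion need not be limited to endothelium. Each group stands for the joined brains of 3 animals, and whether its libraries came from 1 pool or from several is not stated. The spread between libraries therefore need not contain the difference between mice, and p-values measure only the spread between these libraries.

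Collagens are triple helices of 3 chains, and the family splits by what the helices build. Fibrillar collagens form the fibres of the meninges and of the outer coat of large vessels. FACIT collagens sit on those fibres, type VI makes beaded filaments, types IV and VIII make sheets, and transmembrane collagens stay attached to the cell. In the brain, collagen is concentrated around vessels and in the meninges. Col4a3, Col4a4, Col4a5 and Col4a6 encode type IV chains that are also laid down in basement membranes, so the name "outside the basement membrane" does not hold for these 4 of the 40 genes.

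Of 8 deposited samples, the 2 labelled Lama4-/- held identical counts and were used as 1 library, which leaves 7 distinct libraries. They held 6295 to 9556 cell barcodes and 35479306 to 48314458 unique molecular identifiers (UMIs), and 5 to 22 barcodes were shared between any pair of libraries. After filtering, 47239 cells remained, with a median of 2925 to 6582 UMIs per cell. Clusters made without any collagen gene were named from marker genes. Levels are UMIs per 1000000 UMIs of a cell class in a library (CPM). The assay reads 1 tag at the 3′ end of each molecule, so CPM does not grow with gene length. Whether tags of different genes are caught and counted equally was not tested, so levels of different genes are set side by side only as a description. In endothelial-like cells, Lama4 stood at 45.8 and 44.7 CPM in its WT libraries and 0.0595 CPM in the Lama4-/- library. Lama5 stood at 42.7 and 41.3 CPM in its WT libraries and at 22.6 and 23.9 CPM in the Tek-Cre:Lama5-/- libraries, where tags from the 3′ end need not come from the deleted part of the gene.

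All 40 genes had at least 1 UMI, and 27 reached a median of at least 20 CPM over the libraries in at least 1 cell class. These were 9 of 11 fibrillar, 4 of 6 beaded-filament, 6 of 7 network-forming, 4 of 9 FACIT and 3 of 4 transmembrane genes, and 1 of 3 others. For 17 of the 27 the fibroblast-like class was the highest, followed by ependymal-like cells with 3, choroid plexus-like cells and pericyte-like cells with 2 each, and astrocyte-like, microglia-like and neuroblast-like cells with 1 each. The order of classes turned between libraries for some of the 17. In the 3 Lama4 libraries Col3a1 was higher in pericyte-like cells, and Col4a5 and Col4a6 were higher in smooth muscle-like cells, than in fibroblast-like cells, and another class was also higher in 1 or more libraries for Col5a2, Col13a1, Col14a1, Col25a1 and Col26a1. No member reached a median of 20 CPM over the endothelial-like class as a whole, though Col14a1 stood at 24.1, 26.8 and 30 CPM in the 3 Lama4 libraries. The 156 fibroblast-like cells gave 15.5% of all UMIs of the 40 genes. Their summed level was 2872 to 5510 CPM per library, against 556 to 1350 CPM in pericyte-like, 357 to 463 CPM in smooth muscle-like and 34.2 to 83.5 CPM in endothelial-like cells.

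**Figure D1:**
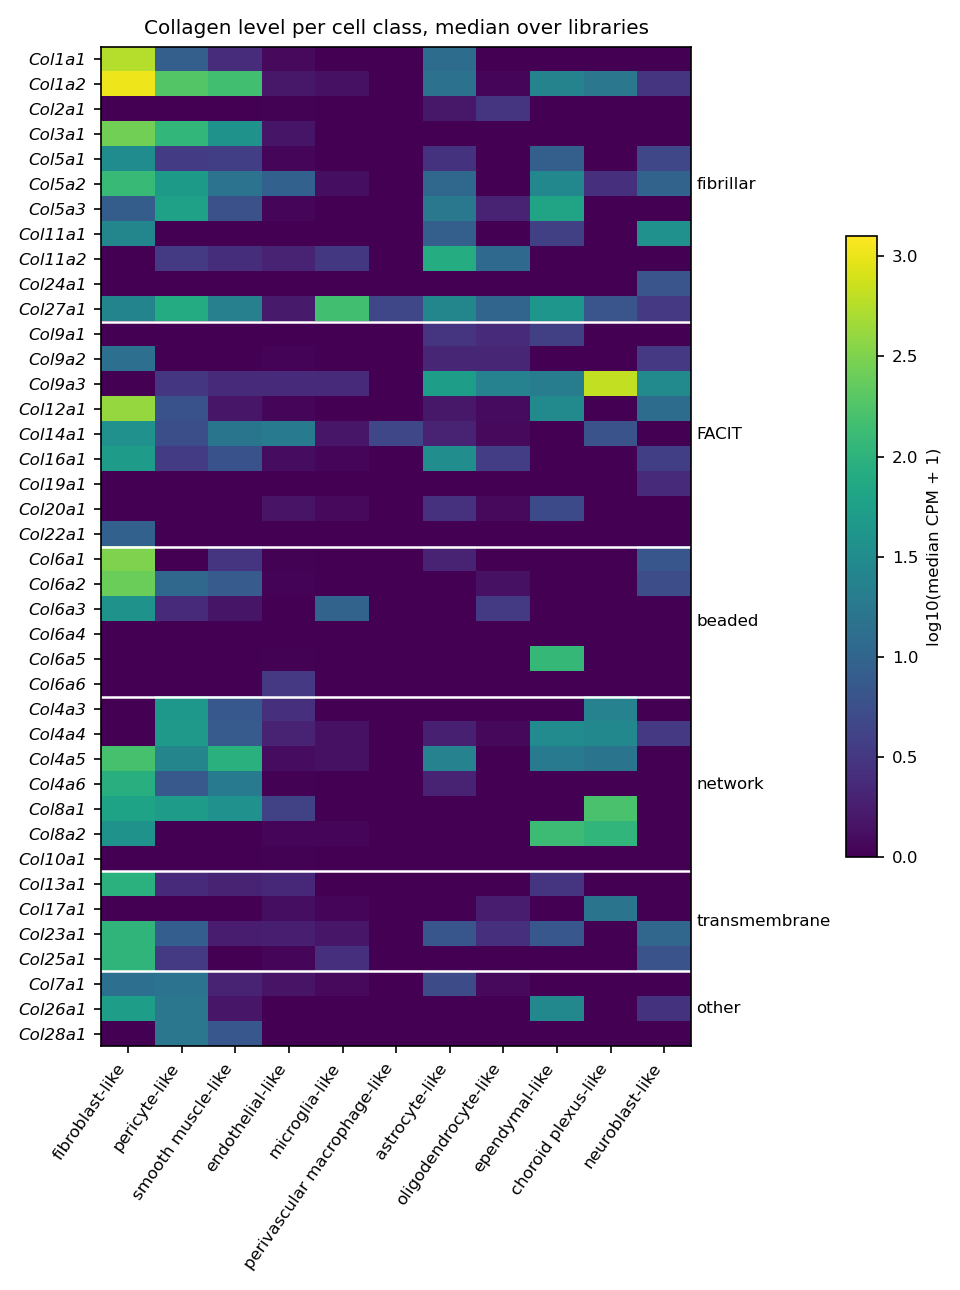
Median level of each of the 40 collagen genes (rows, grouped by family) in 11 cell classes (columns), as log10(CPM + 1), over the libraries with at least 5 cells of the class. The fibroblast-like column is the brightest for 17 of the 27 genes that reach 20 CPM in a class, and the endothelial-like column has no gene at 20 CPM.

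Type I collagen, the chief fibre of skin, bone and meninges, is built from the products of Col1a1 and Col1a2. In fibroblast-like cells Col1a2 ranged from 670 to 1492 CPM over the 7 libraries with a median of 1035 CPM, and Col1a1 from 252 to 888 CPM with a median of 565 CPM. The mural cells had Col1a2 largely without its partner. In pericyte-like cells Col1a2 had a median of 184 CPM and in smooth muscle-like cells 144 CPM, and of 1522 pericyte-like cells 549 had a Col1a2 UMI while 21 had a Col1a1 UMI. In smooth muscle-like cells the counts were 1290 and 22 of 2559 cells, and 10 cells had both. In fibroblast-like cells 113 of 156 cells had both. Col1a2 also reached a median of 23.2 CPM in ependymal-like cells.

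Col3a1, the chain of type III collagen of elastic tissues, had a median of 277 CPM in fibroblast-like, 112 CPM in pericyte-like and 37.8 CPM in smooth muscle-like cells. Type V collagen starts type I fibres and sets their width. Its Col5a2 chain was at 125 CPM in fibroblast-like, 48.2 CPM in pericyte-like and 26.7 CPM in ependymal-like cells. Col5a1 reached 31.4 CPM in fibroblast-like cells only, and Col5a3 was highest in ependymal-like cells with 64.4 CPM (range 49.6 to 75.4) and in pericyte-like cells with 59.1 CPM (range 38.1 to 73.9). The ranges of Col5a3 in these 2 classes overlapped.

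The type XI chains, which are best known from cartilage, fell to different cells. Col11a2 was highest in astrocyte-like cells with a median of 81.8 CPM (range 70 to 121), and Col11a1 in neuroblast-like cells with 35.5 CPM (range 0 to 54.2) and fibroblast-like cells with 25.2 CPM. Col27a1, a fibrillar chain of developing cartilage, was highest in microglia-like cells, where its 7 libraries ranged from 130 to 194 CPM with a median of 144 CPM. It was next in pericyte-like cells with 79.2 CPM (range 56 to 99) and reached 20 CPM also in ependymal-like cells (41.7 CPM), astrocyte-like cells (25.8 CPM), fibroblast-like cells (23.7 CPM) and smooth muscle-like cells (21.6 CPM). No other member reached 20 CPM in microglia-like cells, and the next was Col6a3 with a median of 8.65 CPM.

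Type VI collagen links cells to the matrix, and a helix of the main form takes a chain each from Col6a1, Col6a2 and Col6a3. In fibroblast-like cells their medians were 320 CPM, 252 CPM and 37.8 CPM, and 92 of 156 cells had UMIs of both Col6a1 and Col6a2. Col6a1 stood at 320, 411 and 584 CPM in the Lama4 experiment (WT 1, WT 2, Lama4-/-) and at 516, 202, 213 and 94.1 CPM in the Lama5 experiment (WT 1, WT 2, knockout 1, knockout 2). The spread over the Lama5 libraries, with 8 to 14 fibroblast-like cells each, was wider than over the Lama4 libraries with 27 to 41. Col6a5, an alternative chain with the place of Col6a3, was found almost entirely in ependymal-like cells, with 133, 75.9, 93.4, 116, 111, 208 and 184 CPM in the same library order. Of the members below the 20 CPM limit, Col6a4 had the fewest UMIs, 7 in all libraries.

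FACIT collagens bind to the surface of fibres. Col9a3, a type IX chain, was highest in choroid plexus-like cells with a median of 661 CPM, and it reached 52.2 CPM in astrocyte-like, 28.5 CPM in neuroblast-like and 22.6 CPM in oligodendrocyte-like cells. Its gene overlaps Tcfl5 on the other strand, and its partner Col9a1 reached 20 CPM in no class. Col12a1 was at 408 CPM (range 215 to 639) in fibroblast-like and 29.5 CPM in ependymal-like cells. Col16a1 was at 50.7 CPM in fibroblast-like and 31.8 CPM in astrocyte-like cells. Col14a1, which spaces collagen fibrils, was at 35.5 CPM in fibroblast-like cells (range 0 to 81.9) and was the highest member in endothelial-like cells with 17.7 CPM (range 12.5 to 30).

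Type IV chains work in fixed sets, α3 with α4 and α5, and α5 with α6. The 4 genes lie as head-to-head pairs in the mouse genome, where partners start back to back and are read apart, so the stretch between their starts is shown beside their levels. In the GENCODE M21 annotation of the build GRCm38 (mm10), Col4a3 (chromosome 1, 82586921 to 82722059, plus strand) and Col4a4 (chromosome 1, 82448423 to 82586849, minus strand) have starts with 71 bases between them. Col4a5 (chromosome X, 141475385 to 141689234, plus strand) and Col4a6 (chromosome X, 141165403 to 141474076, minus strand) have 1308 bases between theirs. The first line is the whole Col4a4-to-Col4a3 stretch on the plus strand (chr1:82586850-82586920). RefSeq also lists a longer Col4a4 form that starts beyond Col4a3's start. The other 2 lines are the 150 bases before the outermost annotated start of Col4a5 (chrX:141475220-141475369, plus strand) and of Col4a6 (chrX:141474096-141474245, minus strand), from RefSeq's promoter sequences of GRCm38.p6, read 5′ to 3′ on the named strand.
Col4a4 to Col4a3: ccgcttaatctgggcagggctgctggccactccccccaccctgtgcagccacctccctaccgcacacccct
Col4a5: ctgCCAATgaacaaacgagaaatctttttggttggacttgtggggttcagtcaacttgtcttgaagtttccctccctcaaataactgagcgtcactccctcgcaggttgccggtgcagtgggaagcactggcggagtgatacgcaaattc
Col4a6: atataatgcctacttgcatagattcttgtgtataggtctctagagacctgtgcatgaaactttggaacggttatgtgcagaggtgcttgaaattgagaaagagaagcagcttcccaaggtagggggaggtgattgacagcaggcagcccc
Capitals mark the only match in these 3 stretches, on either strand, to the motifs searched. These were a TATA box written as TATAAA, the box written as CCAAT, and a GC box for Sp1-type factors written as GGGCGG, and with 1 match none overlaps another. Over 32851 RefSeq promoters, in the 250 bases before each start, 12.4% held TATAAA, 33.8% CCAAT and 32.7% GGGCGG. Of the 40 members 31 had such promoters, 33 in number, and 5, 10 and 20 of these held the 3 motifs. No match says only that these letters are not in the window shown.

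Col4a3 and Col4a4 were at like levels in pericyte-like cells. Their medians there were 44.4 CPM (range 32.7 to 51.5) and 45.7 CPM (range 30.4 to 54.6), and Col4a3 made up 49.9% of the 2 genes' UMIs (95% exact binomial interval 44.7% to 55%, counting error only, as for every interval below). In choroid plexus-like cells the medians were 23 CPM and 27.1 CPM. In ependymal-like cells Col4a4 was found almost without Col4a3: 110 UMIs against 1, and Col4a4 had a median of 30.2 CPM. Of Col4a5 and Col4a6, Col4a5 had more UMIs in each class in which the pair was counted. In smooth muscle-like cells Col4a5 had a median of 92.6 CPM (range 65.7 to 101) and Col4a6 17.2 CPM, and Col4a5 made up 83.7% of their UMIs (81.8% to 85.5%). Col4a5 was also at 24.5 CPM in pericyte-like cells and at 22.9 CPM in astrocyte-like cells, where it had 169 UMIs against 8 of Col4a6. In fibroblast-like cells the share of Col4a5 was 61% (52.3% to 69.3%).

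The fibroblast-like levels of these 2 genes separated the experiments. Col4a5 stood at 3.17, 0 and 12.7 CPM in the Lama4 libraries and at 289, 356, 284 and 157 CPM in the Lama5 libraries. Col4a6 stood at 4.75, 2.69 and 1.82 CPM against 88.1, 226, 302 and 157 CPM. The libraries of the 2 experiments did not overlap, and the kinds of fibroblast-like cell caught in them differed as described further on.

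Type VIII collagen forms hexagonal sheets under vessel and corneal endothelium. Col8a1 was at 162 CPM in choroid plexus-like, 62.7 CPM in fibroblast-like, 50.8 CPM in pericyte-like and 36.2 CPM in smooth muscle-like cells. Col8a2 was at 133 CPM (range 107 to 169) in ependymal-like, 108 CPM in choroid plexus-like and 37.8 CPM in fibroblast-like cells. Only the choroid plexus-like and fibroblast-like cells had both at 20 CPM or more. Among the transmembrane collagens, Col23a1 (107 CPM), Col25a1 (107 CPM) and Col13a1 (94.1 CPM) each reached 20 CPM in fibroblast-like cells and in no other class. Col23a1 was even over the libraries with 94.1 to 188 CPM. Col13a1 stood at 12.7, 2.69 and 52.8 CPM in the Lama4 libraries and at 164, 261, 231 and 94.1 CPM in the Lama5 libraries. Col26a1 was at 53.3 CPM in fibroblast-like and 26.7 CPM in ependymal-like cells.

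All 11 fibroblast markers had UMIs in the fibroblast-like class, but their summed level was 3119 to 5600 CPM in the Lama4 libraries and 18338 to 34856 CPM in the Lama5 libraries. The 156 fibroblast-like cells fell into 4 groups when they were clustered again without collagen genes. Named by their leading genes, these were 74 Cd74- and Slc47a1-expressing cells, 41 Vtn-, Slc6a13- and Apod-expressing cells, 21 Dapl1- and Clu-expressing cells, and 20 Coch- and Vcam1-expressing cells. Their collagen makeup differed, as a description of these cells. Summed over the libraries, Col6a1 was at 640 CPM and Col6a2 at 448 CPM in the Cd74-led cells, against 167 CPM and 83.5 CPM in the Vtn-led cells. The Vtn-led cells had Col4a5 at 363 CPM (Poisson interval 285 to 456), Col4a6 at 241 CPM, Col13a1 at 250 CPM and Col3a1 at 516 CPM. The Dapl1-led cells had the lowest Col1a1 (230 CPM) and Col1a2 (401 CPM) of the 4 and the highest Col25a1 (265 CPM) and Col23a1 (154 CPM). The Coch-led cells had Col26a1 at 177 CPM, Col14a1 at 137 CPM and Col9a2 at 96.7 CPM.

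The libraries held these groups in unlike numbers. The Vtn-led cells numbered 1, 1 and 1 in the Lama4 libraries and 8, 11, 12 and 7 in the Lama5 libraries. The Cd74-led cells numbered 25, 21 and 24 against 3, 1, 0 and 0. The Coch-led cells numbered 4 and 0 in the WT libraries and 14 in the Lama4-/- library. Differences of fibroblast-like collagen levels between experiments therefore move with the makeup of the class, and the part of each was not tested.

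**Figure D2:**
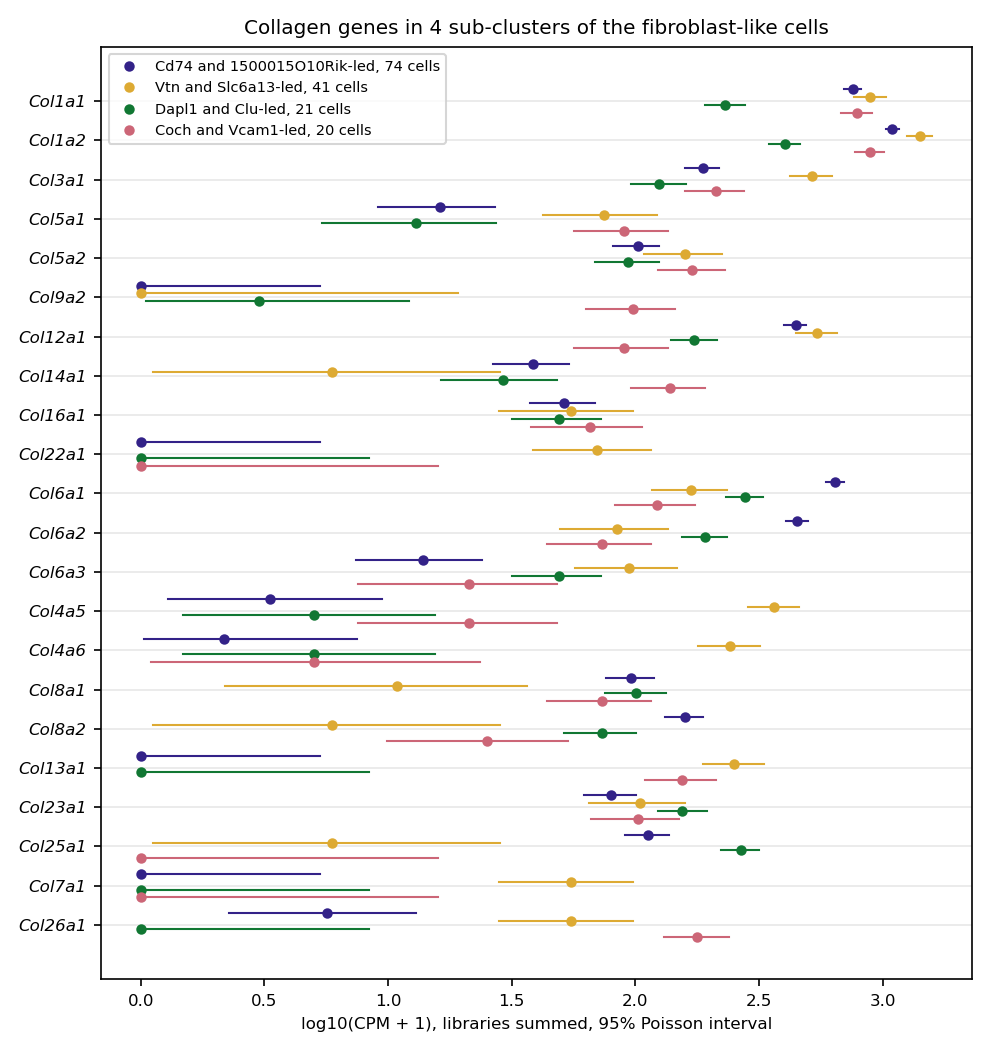
Level of each collagen gene that reaches 50 CPM in at least 1 of 4 sub-clusters of the fibroblast-like cells, as log10(CPM + 1) with the libraries summed. Points are levels and lines 95% Poisson intervals, and the Vtn-led cells stand above the other 3 groups for Col4a5 (363 CPM) and Col4a6 (241 CPM).

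A cluster of 154 mural cells was led by Col3a1 and Ifitm1 beside the pericyte genes Vtn and Kcnj8. Col3a1 had not been used to make the cluster. The cluster was singled out because Col3a1 was among its leading genes, so its high Col3a1 follows from that choice. The cluster is counted in the pericyte-like class. Col3a1 stood there at 841, 1285 and 1434 CPM in the Lama4 libraries and at 1262, 991, 1111 and 835 CPM in the Lama5 libraries. In the other 1368 pericyte-like cells it stood at 44.8, 57, 44.3, 43.5, 45.1, 34.1 and 28.3 CPM. The cluster also had Col1a2 at 468 CPM, Col8a1 at 236 CPM, Col5a2 at 170 CPM and Col14a1 at 88.9 CPM, and Col12a1, high in fibroblast-like cells, at 5.08 CPM. Of 11 fibroblast markers 8 had UMIs in the cluster, with a sum of 496 to 1157 CPM per library against 3119 to 34856 CPM in fibroblast-like cells, and Lum, Dpt and Slc22a6 were at 0. Smooth muscle markers summed to 6733 to 9149 CPM in the cluster, against 2386 to 4474 CPM in the whole pericyte-like class and 28169 to 52637 CPM in smooth muscle-like cells. Pericyte markers summed to 16495 to 24226 CPM in the cluster, against 28550 to 35578 CPM in the whole pericyte-like class. The cluster had 52, 41 and 29 cells in the Lama4 libraries and 5, 5, 5 and 17 in the Lama5 libraries.

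Within the endothelial-like class some members differed between vessel types and others had no clear place. Arterial and venous clusters were named from marker genes such as Bmx and Gkn3, or Vwf and Slc38a5, and the remaining clusters are called other. Col14a1 stood at 61, 59.2 and 69.3 CPM in arterial cells of the Lama4 libraries and at 39, 40.9, 32.3 and 30.4 CPM in those of the Lama5 libraries. In venous cells it stood between 0 and 3.67 CPM. Every library had more Col14a1 in arterial than in venous cells, and the ranges did not overlap. Among the arterial clusters, the one led by Gkn3, Fbln5 and Mgp had Col5a2 at 63.4 CPM (Poisson interval 59.2 to 67.9) and Col8a1 at 27.1 CPM (24.4 to 30), with Col5a2 between 57.1 and 76.1 CPM in each of the 7 libraries. Col3a1 was at 8.56 CPM there. Col9a3, with the libraries summed, was at 3.2 CPM in arterial, 2.07 CPM in venous and 1.46 CPM in other cells, and Col4a3 was at 0.56, 0.406 and 2.7 CPM, highest in the other clusters. The cluster led by Cdh13 and Emp1, which met only 2 arterial markers and was left among the other clusters, had Col14a1 at 54.6 CPM.

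Col6a6, a further alternative chain of type VI, stayed under 20 CPM in every whole class and was chosen for description after its values were seen. It had the opposite place. In venous cells it stood at 26.1, 25.7 and 55.3 CPM in the Lama4 libraries and at 6.54, 7.95, 7.52 and 11 CPM in the Lama5 libraries. Of its 575 UMIs in all cells, 545 were in venous cells. Its 2 venous clusters came mostly from 1 experiment each, with 33.9 CPM in the cluster of mainly Lama4-experiment cells and 8.34 CPM in the other, so cluster and experiment cannot be told apart. Col13a1 reached 13.8 CPM in the arterial cluster led by Gkn3 and Lypd1, of whose 1291 cells 395, 369 and 436 were from the Lama4 libraries.

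**Figure D3:**
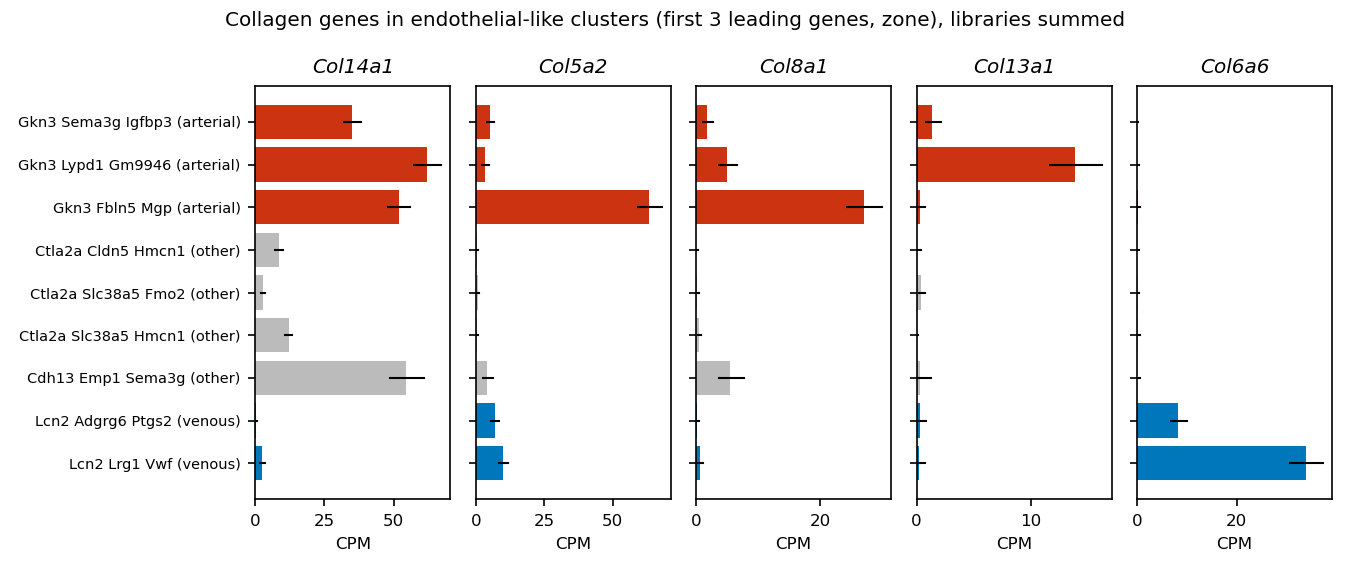
Level in CPM of 5 collagen genes (panels) in 9 endothelial-like clusters (bars, named by 3 leading genes and zone), libraries summed, with 95% Poisson intervals as black lines. Col14a1 is high in the arterial bars, Col5a2 and Col8a1 in the Fbln5-led bar (63.4 and 27.1 CPM), and Col6a6 in the venous bars (33.9 and 8.34 CPM).

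The loss of Lama5 was asked about with 2 knockout against 2 WT libraries per cell class, by edgeR's quasi-likelihood test on summed UMIs with Benjamini-Hochberg adjustment over all genes tested in the class, at a threshold of 0.05. In endothelial-like cells 12 of the 40 members passed the filter on low counts and 1 was called, where 19% of all 13182 genes were called. Col14a1 (chromosome 15, 55307750 to 55520803) stood at 16 and 17.7 CPM in WT and 12.5 and 12.9 CPM in the knockout. Both knockout libraries lay below both WT libraries, and the log2 fold change was -0.33 ± 0.0871 (SE, n = 2 against 2, edgeR adjusted p = 0.00563). Without WT library 2 the call was lost (log2 fold change -0.26, edgeR adjusted p = 0.08). In arterial cells alone the values were 39 and 40.9 against 32.3 and 30.4 CPM, a log2 fold change of -0.27 that did not pass (edgeR adjusted p = 0.164, 5.82% of all genes called), and in the other clusters -0.24 (edgeR adjusted p = 0.309, 14.6% of all genes called). In venous cells no member was called, beside 6.93% of all genes. Arterial cells numbered 1129 and 1051 in WT and 936 and 939 in the knockout, and the part of this in the fall over the class was not tested. Col6a6 stood at 1.17 and 1.44 CPM in WT and at 1.84 and 2.23 CPM in the knockout. These groups did not overlap either, but the log2 fold change of 0.72 missed the threshold (edgeR adjusted p = 0.0579). An exact permutation test of a single value with 2 against 2 libraries cannot go below p = 0.33.

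In microglia-like cells 2 members passed the filter and Col27a1 (chromosome 4, 63214004 to 63334991) was called, with 14.4% of all genes called there. It stood at 194 and 173 CPM in WT and at 141 and 130 CPM in the knockout, a log2 fold change of -0.36 ± 0.081 (SE, n = 2 against 2, edgeR adjusted p = 6.16e-04). Both knockout libraries were below both WT libraries, and near the 150 and 136 CPM of the WT libraries of the other experiment. Without WT library 1 the log2 fold change was -0.25 and the call was lost (edgeR adjusted p = 0.0932). The microglia-like cells numbered 607 and 556 in WT and 1065 and 1001 in the knockout, and their 8 marker genes summed to 17084 and 17108 CPM against 14665 and 14390 CPM. Astrocyte markers in these cells went from 256 and 237 CPM to 152 and 167 CPM, and perivascular macrophage markers from 27.4 and 26.2 CPM to 12.3 and 9.44 CPM. The part of these in the fall was not tested.

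The same gene was called in 2 other classes, with opposite signs. In astrocyte-like cells, with 8 members tested and 13.6% of all genes called, Col27a1 stood at 24.7 and 21.5 CPM in WT and at 52.3 and 38.2 CPM in the knockout (log2 fold change 0.92 ± 0.301, edgeR adjusted p = 0.0493). The summed level of the microglia markers in these astrocyte-like cells rose beside it, from 342 and 305 CPM to 1534 and 1020 CPM, and the astrocyte markers went from 14860 and 14639 CPM to 11132 and 11887 CPM. The makeup of the class moved too: the cluster led by Dclk1 and Cldn10 had 111 and 117 cells in WT and 42 and 55 in the knockout, and the one led by Gfap and Fabp7 had 22 and 40 against 6 and 16, of 296 and 347 against 222 and 247 astrocyte-like cells. The part of these in the rise of Col27a1 was not tested. Leaving out knockout library 1 or either WT library ended this call (edgeR adjusted p = 0.339, 0.129 and 0.25). In oligodendrocyte-like cells, with 9 members tested and 11.9% of all genes called, Col27a1 stood at 11.2 and 10.5 CPM in WT and at 6.13 and 7.6 CPM in the knockout (log2 fold change -0.61 ± 0.195, edgeR adjusted p = 0.0359). The microglia markers there stood at 84.2 and 96.4 CPM in WT and at 113 and 122 CPM in the knockout. Without knockout library 1 or WT library 1 this call was lost (edgeR adjusted p = 0.267 and 0.16). Over all cells together 24.5% of genes were called, and Col27a1 was higher in the knockout (log2 fold change 0.32, edgeR adjusted p = 0.0321) and Col14a1 lower (-0.29, edgeR adjusted p = 0.0441). Over all cells a level mixes the level in each class with the number of its cells, which cannot be told apart there. Col27a1 was lost without knockout library 1 (edgeR adjusted p = 0.202) or WT library 2 (0.08), and Col14a1 without either knockout library (0.17 and 0.103) or WT library 2 (0.188).

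In smooth muscle-like cells 13 members passed the filter and 1 was called, with 5.43% of all genes called. Col4a3 stood at 16.3 and 11.6 CPM in WT and at 3.73 and 5.61 CPM in the knockout, a log2 fold change of -1.47 ± 0.377 (SE, n = 2 against 2, edgeR adjusted p = 0.0139). Both knockout libraries were below both WT libraries, and near the 5.66 and 7.85 CPM of the WT libraries of the other experiment. Its partner Col4a4 stood at 6.92 and 6.76 CPM in WT and 7.99 and 8.97 CPM in the knockout, and was not called. The pericyte markers in this class summed to 11656 and 11373 CPM in WT and 9772 and 10595 CPM in the knockout, and their part in the fall of Col4a3, a gene highest in pericyte-like cells, was not tested. Without knockout library 1 or WT library 1 the call was lost (edgeR adjusted p = 0.158 and 0.22). Col3a1 (41.5 and 20.3 CPM in WT, 19.2 and 13.5 CPM in the knockout) had a log2 fold change of -0.81 that missed the threshold (edgeR adjusted p = 0.0744), and Col1a2 (142 and 156 against 118 and 114 CPM) one of -0.27 (edgeR adjusted p = 0.112). The median log2 fold change of the 13 members tested in smooth muscle-like cells was -0.42, beside -0.00 over all genes tested. The median of the tested members was 0.18 in endothelial-like, 0.17 in astrocyte-like, 0.17 in ependymal-like and 0.04 in pericyte-like cells. It was -0.01 in oligodendrocyte-like cells and -0.02 over all cells. With 2 members tested in each, it was -0.22 in microglia-like and 0.58 in neuroblast-like cells.

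In ependymal-like cells 9 members passed the filter and Col6a5 (chromosome 9, 105856078 to 105960643) was called, where 0.565% of all genes were called. It stood at 116 and 111 CPM in WT and at 208 and 184 CPM in the knockout, with log2 fold change 0.82 ± 0.182 (SE, n = 2 against 2, edgeR adjusted p = 0.00872). Both knockout libraries were above both WT libraries and above the 133 and 75.9 CPM of the other WT libraries. The fibroblast markers in this class summed to 109 and 125 CPM in WT and 214 and 204 CPM in the knockout, with Lum, Pdgfra, Slc6a13, Dpt and Slc22a6 at 0, and their part in the rise was not tested. The class had 33 to 50 cells in these libraries. Leaving out either knockout library or WT library 2 ended the call (edgeR adjusted p = 0.115, 0.384 and 0.241). In pericyte-like cells 9 members passed the filter and none was called, beside 0.391% of all genes, and in neuroblast-like cells none of 2, beside 0.0647%. An unadjusted edgeR p under 0.05 was met by 1 of the 9 members in pericyte-like cells (Col8a1, 31.9 and 11.4 against 35 and 50.8 CPM). In neuroblast-like cells it was met by 1 of the 2 (Col11a1, 10.4 and 19.4 against 43.7 and 54.2 CPM). DESeq2 called none in either class. Fibroblast-like cells, the class with most collagen, had 8 to 14 cells per library here, under the 20 set for a test. With DESeq2 in place of edgeR no member was called in any class, and at an unadjusted p under 0.05 it had 2 members in smooth muscle-like cells and 1 each in endothelial-like, microglia-like and ependymal-like cells. The shares of all genes under an unadjusted p of 0.05, and of those called by DESeq2, are not given here. Counts at these settings are therefore not read as a result about the members.

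**Figure D4:**
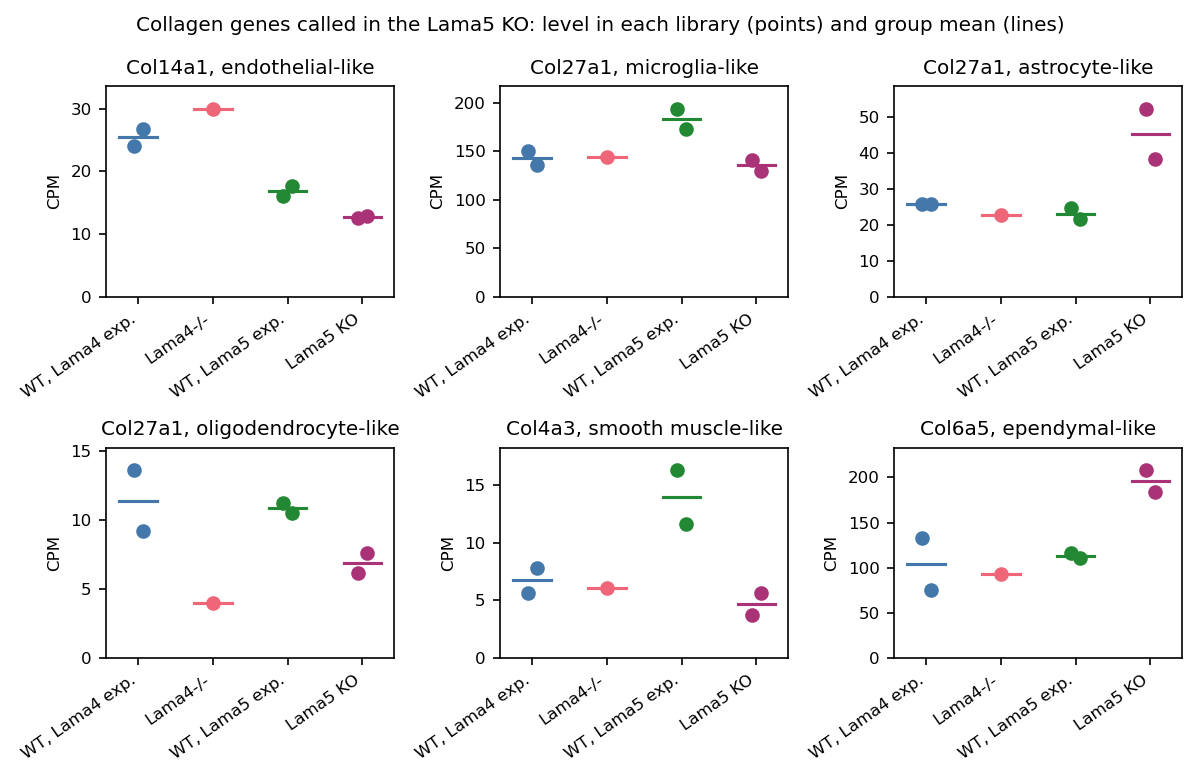
Level in CPM (vertical axis, from 0) of the gene and class of each panel in the 7 libraries (points) of 4 groups (horizontal axis), with group means as lines. The panels are the genes called by edgeR within a cell class, a choice that favours separated groups. In each panel the Lama5 KO points do not overlap those of their own WT group, with Col27a1 lower in microglia-like and oligodendrocyte-like cells and higher in astrocyte-like cells.

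Genes that serve collagen were counted in 4 lists. Of 19 genes for folding and secretion in the endoplasmic reticulum, all were tested in endothelial-like cells, where 3 rose and 1 fell, beside 10.5% of all genes higher and 8.47% lower. P4ha3, a prolyl hydroxylase subunit, rose from 0.403 and 0.789 CPM to 1.57 and 1.53 CPM (log2 fold change 1.45, edgeR adjusted p = 0.00245). P3h3 rose by 1.07 on the log2 scale, from 0.762 and 0.65 CPM in WT to 0.866 and 2 CPM in knockout libraries 1 and 2. Knockout library 1 thus stood near WT for P3h3. P4hb rose by 0.10 after scaling of the totals, while its unscaled levels were 173 and 176 CPM against 177 and 176 CPM. Crtap fell by 0.18. Of 12 trimming and cross-linking genes 4 were tested, and the cross-linking enzyme gene Lox rose from 1.03 and 1.39 CPM to 2.11 and 3.17 CPM (log2 fold change 1.19, edgeR adjusted p = 0.00129). Of 7 tested receptor genes Itga1, the α1 chain of a collagen-binding integrin, fell by 0.25 on the log2 scale (518 and 508 to 414 and 403 CPM, edgeR adjusted p = 3.77e-10). Of 7 tested proteoglycan and glycoprotein genes Sparc, a collagen-binding secreted protein, fell by 0.36 (1384 and 1367 to 1043 and 983 CPM, edgeR adjusted p = 3.37e-14). Of the basement membrane collagens set aside by the rule, Col4a1 fell by 0.19 and Col4a2 by 0.23.

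In smooth muscle-like cells 4.24% of all genes were called higher and 1.2% lower. None of 16 tested folding genes, 1 of 6 trimming genes, 1 of 6 receptor genes and 2 of 5 proteoglycan and glycoprotein genes were called there. Sparc and Itga1 were lower, by 0.27 and 0.25 on the log2 scale, together with Pcolce, which helps to trim procollagen (-0.49, edgeR adjusted p = 0.0121), and the fibril-binding Fmod (-0.75, edgeR adjusted p = 0.0189). In microglia-like cells Mrc2, an endocytic collagen receptor, fell from 8.65 and 10.6 CPM to 4.09 and 2.9 CPM (log2 fold change -1.34, edgeR adjusted p = 0.0134), Sparc fell by 0.21, and among 13 tested folding genes P4hb rose by 0.30 while Colgalt1 fell by 0.30 and Plod1 fell by 0.28, beside 8.92% of all genes higher and 5.49% lower. The astrocyte and macrophage markers given above fell in the same cells. In astrocyte-like cells Serpinh1, the collagen chaperone, fell by 0.78 and Ppib by 0.46, and the leukocyte collagen receptor gene Lair1 rose by 1.69, beside the rise of microglia markers given above, with 8.08% of all genes higher and 5.55% lower. In oligodendrocyte-like cells P4ha1 rose by 0.35, Lair1 rose by 1.52 and Pcolce2 fell by 0.22, with 6.17% higher and 5.68% lower. Lair1 was low there, with 0.911 and 1.48 CPM in WT and 3.64 and 2.89 CPM in the knockout. Microglia markers were also higher in the knockout in this class, as given above, and their part in the rise of Lair1 was not tested. No gene of the 4 lists was called in ependymal-like or pericyte-like cells, where 0.565% and 0.391% of all genes were called.

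The 2 WT groups give the size of the difference between experiments, in which pool, depth and experiment cannot be told apart. In endothelial-like cells 14 members passed the filter and 9 were called, beside 55.8% of all genes. The log2 fold change of the Lama5 experiment's WT over the other WT was -3.63 for Col13a1, -2.71 for Col3a1, -2.10 for Col6a6, -0.95 for Col9a3, -0.91 for Col8a1, -0.48 for Col14a1 and -0.31 for Col5a2, and it was 2.06 for Col23a1 and 0.84 for Col4a4. Col6a6, for example, had 1.17 and 1.44 CPM in the Lama5 experiment's WT and 6.16 and 5.91 CPM in the other. In pericyte-like cells 13 passed and 5 were called, all lower in the Lama5 experiment, beside 11.9% of all genes: Col14a1 (-3.50), Col8a1 (-1.99), Col3a1 (-1.84), Col5a2 (-1.15) and Col1a2 (-0.50). In the pericyte-like cells outside the Col3a1-led cluster Col3a1 was at 43.5 and 45.1 CPM against 44.8 and 57 CPM, while Col5a2 was at 28.1 and 30.8 CPM against 57.3 and 59.9 CPM. Col8a1 was at 25.6 and 9.49 CPM there against 26.6 and 38 CPM, Col1a2 at 161 and 154 CPM against 207 and 172 CPM, and Col14a1 at 0 and 0 CPM against 1.4 and 1.46 CPM. The Col3a1-led cluster held 19 of 20 and 37 of 38 Col14a1 UMIs, and 44 of 63 and 83 of 109 Col8a1 UMIs, of the WT pericyte-like cells in the Lama4 experiment, where it had 52 and 41 cells against 5 and 5. The part of this in the differences was not tested. In smooth muscle-like cells 15 passed and 5 were called, beside 27.9% of all genes, and Col4a5 was higher in the Lama5 experiment (100 and 101 against 80.3 and 65.7 CPM). For Col14a1 in endothelial-like cells the -0.48 between WT groups stands beside the -0.33 between the Lama5 knockout and its WT, and these sizes were not compared by a test.

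The loss of Lama4 could not be tested, since 1 distinct library stood against 2 WT libraries. Ratios are of the Lama4-/- library over both WT libraries summed, after scaling of the totals, with intervals for counting error only, and a gene is counted when it is past 1.5-fold and outside both WT libraries. In endothelial-like cells 4 of 14 members with at least 20 UMIs were higher and none lower, beside 7.34% of all genes past that fold. Col6a6 stood at 6.16 and 5.91 CPM in WT and 11.8 CPM in the Lama4-/- library, a ratio of 1.89 (95% interval 1.56 to 2.30), and in venous cells at 26.1 and 25.7 CPM against 55.3 CPM, a ratio of 2.14 (1.76 to 2.60). The Lama4-/- library was about as far above each WT library, which stood close together. Col13a1 stood at 2.51 and 1.25 CPM against 4.58 CPM (ratio 2.32, interval 1.66 to 3.23), and without WT library 1 the ratio was 3.56. Col3a1 stood at 1.73 and 1.9 CPM against 3.09 CPM (ratio 1.65). Col9a3 stood at 2.42 and 2.06 CPM against 5.77 CPM (ratio 2.48), and the choroid plexus markers in the same cells summed to 155 and 99.3 CPM against 1038 CPM; the part of these in the Col9a3 value was not tested. Col14a1 stood at 24.1 and 26.8 CPM against 30 CPM, a ratio of 1.14.

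Over all cells 16 of 34 members were past 1.5-fold higher and 2 lower, beside 14.7% of all genes. The largest ratio was that of Col9a3, with 15.1 and 10.8 CPM in WT and 64.8 CPM in the Lama4-/- library (4.87, interval 4.53 to 5.25). Choroid plexus-like cells, the class highest in Col9a3, numbered 27 and 25 in WT and 112 in the Lama4-/- library, and within that class Col9a3 stood at 661, 574 and 679 CPM. Col8a1 (11.2, 10.7 and 25.3 CPM) and Col8a2 (4.79, 4.42 and 13.4 CPM), both high in that class, were also past the fold over all cells, and within the class Col8a1 stood at 160, 124 and 190 CPM and Col8a2 at 109, 106 and 108 CPM. In that class 1 member was past the fold higher, Col1a2 (14.4, 16.1 and 33.3 CPM), and 1 lower, Col14a1 (22.4, 16.1 and 5.15 CPM), of 10, beside 18.2% of all genes.

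Members past the fold were also counted in the mural cells. In smooth muscle-like cells 1 was higher and 2 lower of 17, beside 11.3% of all genes: Col3a1 stood at 37.8 and 45.1 CPM in WT and 64.3 CPM in the Lama4-/- library (ratio 1.53, interval 1.23 to 1.91), while Col4a4 and Col28a1 were lower on 2 and 3 UMIs in that library. In pericyte-like cells 5 were higher and 1 lower of 20, beside 14.9% of all genes. Col1a1 was at 13.7 and 25.5 CPM against 43.8 CPM (ratio 2.19, interval 1.33 to 3.61), and Col4a5 at 15.8 and 28.5 CPM against 38.3 CPM (1.70, interval 1.01 to 2.79). All Col1a1 UMIs of these 3 libraries in the pericyte-like class, 13, 25 and 32, lay in the Col3a1-led cluster. Fibroblast markers in that cluster summed to 496 and 816 CPM in WT and 1157 CPM in the Lama4-/- library, and in the whole class to 432 and 501 CPM against 625 CPM, and their part in the Col1a1 value was not tested. Col6a1 rested on 0, 6 and 14 UMIs, and Col4a6, Col7a1 and, as the lower one, Col14a1 had intervals that include 1.

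In fibroblast-like cells 8 of 19 members were past the fold higher and 3 lower, beside 26.3% of all genes, and the direction of the main chains depended on the cell filter. Col1a1 stood at 459 and 562 CPM in WT and 868 CPM in the Lama4-/- library (ratio 1.61, interval 1.42 to 1.83), Col1a2 at 670 and 766 against 1179 CPM (1.54), and Col6a1 at 320 and 411 against 584 CPM (1.52). In the same cells fibroblast markers summed to 3917 and 3119 CPM in WT and 5600 CPM in the Lama4-/- library, pericyte markers to 130 and 59.1 against 366 CPM, and choroid plexus markers to 109 and 99.5 against 593 CPM, and their part in these ratios was not tested. With the filter raised to 1000 genes per cell, which left 26, 12 and 25 of 41, 27 and 41 cells, the ratios of these 3 genes were 0.635, 0.755 and 0.536. Col6a2 went from 1.41 to 0.427, Col12a1 from 1.45 to 0.417 and Col23a1 from 0.975 to 1.81. Col8a1 went from 0.538 to 1.21 and Col6a3 from 0.617 to 2.85. With doublets kept Col1a1 was at 1.16 and Col6a3 at 1.61. Col13a1 (5.42 and 3.70), Col26a1 (5.72 and 4.97), Col5a1 (2.84 and 3.30), Col9a2 (3.15 and 2.75) and Col14a1 (2.37 and 1.55) kept their direction under the stricter filter, as did Col25a1, which was lower (0.314 and 0.533). Without WT library 1 the ratios of Col13a1 and Col26a1 were 18.1 and 21.2, on 1 WT UMI each. Col26a1, Col13a1 and Col14a1 were high in the Coch-led cells, of which the Lama4-/- library had 14 and the WT libraries 4 and 0. Within the Cd74-led cells, with 25, 21 and 24 cells, Col1a1 was at 695 and 698 CPM against 937 CPM (unscaled ratio 1.35) and Col6a1 at 425 and 491 CPM against 934 CPM (2.04).

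**Figure D5:**
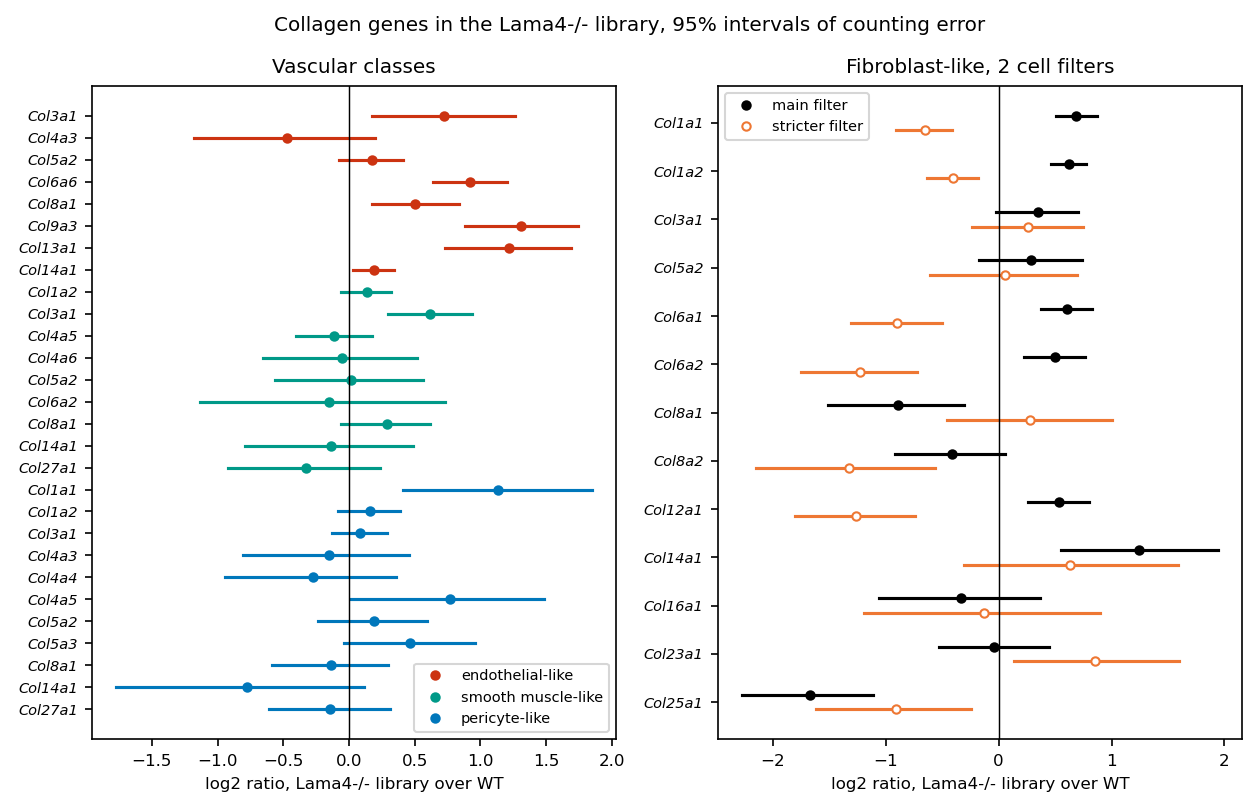
Ratio of the Lama4-/- library over its summed WT libraries (horizontal axis, log2) for collagen genes with at least 60 UMIs in the 3 libraries, with 95% intervals of counting error as lines. Left, endothelial-like, smooth muscle-like and pericyte-like cells, with Col6a6 and Col13a1 above 0 in endothelial-like cells; right, fibroblast-like cells under 2 cell filters, where Col1a1 and Col6a1 lie on opposite sides of 0 (1.61 and 0.635, 1.52 and 0.536 as ratios).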

How the data were processed

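Single-cell libraries of the cortex were made with a 10x 3′ v3 kit after enzymatic digestion and removal of myelin, per the labels' protocols. The deposited values are whole-number UMI counts per gene and cell. Cell Ranger (version not given), Seurat 3.1 and the build mm10 are named in the submitters' processing notes, without their settings. The strand setting of the counting is not given in the sources used here, so Col9a3 and Tcfl5, or Col10a1 and Nt5dc1, which overlap on opposite strands, may share tags.

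Cells with at least 500 genes and at most 15% mitochondrial UMIs were kept, and simulated-doublet scores removed 0.8% per 1000 barcodes. Cells were clustered from 2000 variable genes, without collagen genes, with 30 components, 15 neighbours and resolution 1.0 (igraph 0.11.9, numpy 2.4.6, scipy 1.17.1). Classes were named "-like" from marker genes, and zones and sub-clusters likewise or by leading genes. Counts were summed per library and class. Classes with at least 20 cells in each library were tested with edgeR 4.0.16 (filterByExpr, TMM, quasi-likelihood, Benjamini-Hochberg over all genes tested, threshold 0.05), with DESeq2 1.42.0 as an alternative. On simulated data the test recovered 86% of genes changed by 0.5 on the log2 scale in endothelial-like cells, 61% in smooth muscle-like and 68% in microglia-like cells. Of its calls there, 4.62%, 4.24% and 6.74% were unchanged genes, the last above the threshold. The changed genes of the simulation were drawn only from genes with many UMIs, so these shares need not hold for members with few UMIs. Every simulated gene had the spread of the trend over expression level, with none departing from it. In each class 100 genes were changed by 0.5 and 100 by 1, while 2501 genes were called in the real endothelial-like cells. These shares therefore need not hold for the real calls. Lama4 ratios use TMM-scaled totals and exact conditional 95% intervals. Members are described where a class reached a median of 20 CPM or a call was made, and other genes by counts, with the 3 largest rises and falls per list named. The members and lists were chosen with earlier results of these data known.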

Additional observations from a re-analysis of the deposited data

Results flagged for a closer look

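Col14a1 in endothelial-like cells lay on opposite sides of WT in the 2 knockouts, by a small distance on the Lama4 side. The Lama4-/- library was above both of its WT libraries, with a ratio of 1.14 (interval 1.02 to 1.27, counting error only). This ratio was not past 1.5-fold, and the WT libraries differed from each other by a ratio of 1.11. Both Tek-Cre:Lama5-/- libraries were below both of their WT libraries, with a log2 fold change of -0.33 that edgeR called and DESeq2 did not. The difference between the 2 knockouts was not tested.

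Col27a1 moved in opposite directions between classes of the same Tek-Cre:Lama5-/- libraries. Its log2 fold change was 0.92 in astrocyte-like cells, -0.36 in microglia-like cells and -0.61 in oligodendrocyte-like cells. In each class the knockout libraries did not overlap the WT libraries, and the choice of classes with a call favours such separation. In astrocyte-like cells of the Lama4-/- library Col27a1 was below both WT libraries, with a ratio of 0.875. The interval of this ratio, for counting error only, was 0.594 to 1.27 and so includes no change. These differences between classes and between knockouts were not tested. The microglia markers in astrocyte-like cells stood at 342 and 305 CPM in WT and at 1534 and 1020 CPM in the Tek-Cre:Lama5-/- libraries, and their part in the value of Col27a1 was not tested.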

How the results depend on the processing

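The 27 members at 20 CPM or more were 27 under each alternative. For Tek-Cre:Lama5-/- against WT, edgeR called 2 members over all cells, 1 each in endothelial-like, smooth muscle-like, ependymal-like, microglia-like, astrocyte-like and oligodendrocyte-like cells and 0 in pericyte-like and neuroblast-like cells. DESeq2 called 0 in each. Without the filter on low counts there were 0 over all cells, 2 in endothelial-like, 0 in astrocyte-like and 2 in neuroblast-like cells. One fit with all libraries gave 2 in endothelial-like, 2 in smooth muscle-like and 0 in oligodendrocyte-like cells. The stricter cell filter gave 2 in endothelial-like and 0 in astrocyte-like cells. DESeq2-type size factors in edgeR, and collagens among the variable genes, each gave 0 in astrocyte-like cells. Arterial, venous and other endothelial-like clusters alone, a split chosen after seeing the data, as was that of fibroblast-like and pericyte-like cells, gave 0. Leaving out a library gave 0 to 4 over all cells, 2 to 2 in endothelial-like, 0 to 2 in smooth muscle-like, 0 in pericyte-like, 0 to 1 in ependymal-like, microglia-like, oligodendrocyte-like and neuroblast-like, and 0 to 2 in astrocyte-like cells. The share of all genes called under each setting is not given beside these counts or those below. They therefore do not show whether the members departed from that share. The cause of these changes was not tested.

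Same-numbered libraries shared only a number: their deviations correlated at -0.05 to 0.17. With the replicate number as a block, 3 members were called over all cells, 2 in endothelial-like, 0 in smooth muscle-like and 0 in ependymal-like cells.

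For the 2 WT groups, DESeq2 called 2 members in pericyte-like and 0 in smooth muscle-like cells, and leaving out a library gave 7 to 8 in endothelial-like, 4 to 6 in pericyte-like and 2 to 3 in smooth muscle-like cells. For Lama4-/-, the stricter filter left 10 members past the fold over all cells and 4 in choroid plexus-like cells, and collagens among the variable genes 7 in fibroblast-like cells. Leaving out a WT library gave 17 to 18 over all cells, 5 to 12 in fibroblast-like, 4 to 6 in endothelial-like, 0 to 3 in smooth muscle-like, 5 to 6 in pericyte-like and 2 to 4 in choroid plexus-like cells. Under the stricter filter, Col6a2 (0.796) and Col12a1 (0.761) over all cells and Col1a1 (0.635), Col1a2 (0.755), Col6a1 (0.536), Col6a2 (0.427), Col12a1 (0.417), Col23a1 (1.81), Col6a3 (2.85) and Col8a1 (1.21) in fibroblast-like cells changed direction, as did Col6a3 (1.61) with doublets kept. That filter left 26, 12 and 25 fibroblast-like cells. Counting error in this class is the limit of depth, with 8 to 41 cells per library.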
